A study of Homo sapiens with 12 samples.

Results

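A short exposure to a high dose of THZ1 was set against a long exposure to a low dose: 200 nM for 6 h against 50 nM for 12 h, each in the esophageal squamous carcinoma lines KYSE510 and TE7. The comparison uses 4 of the 12 libraries of the series, 2 per condition, chosen by their labelled dose and time and paired by cell line. THZ1 is a covalent inhibitor of CDK7 that also hits CDK12 and CDK13. The other 8 libraries are DMSO and 50 nM for 2, 4 and 6 h in the same lines. They set the spread of each gene and show where the 2 conditions came from. Each condition has 1 library of polyA RNA per line, so the replicates are the lines themselves and there is no repeat within a line. The DMSO libraries are labelled 0 h in their titles and 12 h in another field. Doses and times were not varied independently, so the comparison pools a difference in dose with a difference in time. The question the design allows is whether brief strong and prolonged weak inhibition left the cells with the same transcripts.

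CDK7 is the kinase of the CDK-activating complex and of the general transcription factor TFIIH. It phosphorylates the tail of RNA polymerase II as transcription starts and activates the cell cycle kinases, while CDK12 and CDK13 act during elongation and on long genes with many exons, among them DNA repair genes. When transcription is blocked, the RNAs with the shortest half-lives leave the cell first. Levels below are FPKM, mapped fragments scaled to transcript length and library size, and changes are differences of log2(FPKM + 1) between 200 nM 6 h and 50 nM 12 h, negative where the transcript was lower at 200 nM 6 h. Adding 1 FPKM understates the fold of transcripts near that level. FPKM is a share of each library, so a fall in all RNA of a cell would not show, and in these bulk samples fewer cells of a kind and less RNA per cell cannot be told apart.

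The libraries differed in ways that bear on every value below. Summed FPKM of the 37 mitochondrially encoded genes, left out of the analysis, lay between 53738 and 199073 in the 5 TE7 libraries of DMSO and 50 nM, but at 199.5 in TE7 200 nM and between 41.9 and 548.2 in the 6 KYSE510 libraries. Values above 0 and below 1e-06 FPKM numbered 247 to 273 in those 5 TE7 libraries and 579 to 638 in the other 7. The TE7 pair therefore crosses this divide and the KYSE510 pair does not. The 5.8S rRNA copy RNA5-8SP6 was at 0 FPKM in those 5 TE7 libraries and at 17793 FPKM in TE7 200 nM. In KYSE510 it was at 10810 FPKM at 50 nM 12 h and 40938 FPKM at 200 nM. Summed FPKM of 5S, 5.8S and U6 genes in KYSE510 was 15460.5 at 50 nM 12 h and 43215.9 at 200 nM, but 56354.7 at 50 nM 6 h. In TE7 it was 291.2 at 50 nM 12 h and 24964.6 at 200 nM. How far this moved the values of other genes was not tested. The library labelled KYSE510 200 nM stood apart from its line in another way: 29 protein-coding genes at 8 FPKM or more there were below 0.3 FPKM at 50 nM 12 h, and 55 were the other way round, against 0 and 0 between 50 nM 12 h and 50 nM 6 h. SPP1, which encodes osteopontin, was at 500.1 FPKM there and at 0.220 FPKM at 50 nM 12 h, and CTAG2, a cancer-testis antigen gene, was at 0 against 159.9 FPKM. In TE7 the same counts were 1 and 17. The KYSE510 DMSO library also stood apart, with 64 such genes present only at 50 nM 12 h and 79 only in DMSO. Of 37 protein-coding genes at least 2 log2 units higher in every KYSE510 library of DMSO and 50 nM than in any such TE7 library, the KYSE510 200 nM library was on the high side for 19. Of 79 such genes higher in TE7, the TE7 200 nM library was on the high side for 47 and on the low side for 32. Among such genes that are not protein-coding, it was on the low side for 126 of 136 higher in TE7. It was on the high side for 18 of 24 higher in KYSE510. The KYSE510 200 nM library was on the low side for 133 of those 136 and on the high side for 22 of those 24. So neither 200 nM library kept all the genes that set its line apart, and "KYSE510 200 nM" and "TE7 200 nM" mean the libraries with those labels. Squamous markers were present at 1 FPKM or more in all 8 of 8 in 11 libraries and in 7 of 8 in TE7 200 nM. Leukocyte markers were at or near 0 apart from 1 of 7 (summed 2.58 to 15.5 FPKM) and none of 4 endothelial markers reached 1 FPKM in any library. Of 6 fibroblast markers 1 to 3 reached 1 FPKM in every library (summed 3.60 to 11.35 FPKM), and COL3A1, a fibrillar collagen gene, was at 4.21 FPKM in KYSE510 200 nM against 0.05 FPKM at 50 nM 12 h. Their part in the results was not tested.

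In whole-transcriptome terms 200 nM 6 h lay well away from 50 nM 12 h. Across the 15595 nuclear genes tested, Pearson's r between the 2 libraries was 0.865 in KYSE510 and 0.879 in TE7, and the median gene differed by 0.618 and 0.521 log2 units. Between 50 nM 12 h and 50 nM 6 h, r was 0.975 and 0.963 and the median gene differed by 0.310 and 0.387. Among the 50 nM libraries of its own line, 200 nM 6 h was nearest to 12 h in both lines, but by little: r with 50 nM 6 h was 0.855 and 0.878, and with DMSO 0.818 and 0.853. Under median-of-ratios or upper-quartile scaling of the libraries the median difference was smallest to 50 nM 6 h instead, in both lines. The same treatment in the other line was as far away, with r of 0.855 between the lines at 200 nM and 0.867 at 50 nM 12 h. A difference beyond 2-fold was seen for 31.0% of genes in KYSE510 and 24.0% in TE7. These correlations run across genes, which are not independent replicates.

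Of the 15595 genes, 2580 (16.5%) differed between the conditions at an adjusted p under 0.05 (limma over all 12 libraries with the cell line as a block). Transcripts lower at 200 nM 6 h outnumbered those higher, 1880 (12.1%) against 700 (4.49%), and the median change of all genes was -0.186. All 2580 had the same sign in both lines, which a call nearly requires, since the 2 lines are the only replicates. With 4-fold or more in each line, 150 genes were lower, 13 higher and 11 opposed. The uneven split rests on the scaling. It was 1880 to 700 on FPKM as deposited, 1660 to 1189 by median-of-ratios, 1631 to 1354 by upper quartile, 1152 to 1212 with equal sums of nuclear FPKM and 1011 to 1502 with equal sums of protein-coding FPKM. A fit without 1 of the 4 libraries compared leaves 1 library in that condition and still uses both libraries of the other. Counts from such fits, given below, do not isolate the pair of 1 line and rest on no spread within that condition. Without the cell line block 569 genes were called. The counts of gene lists below shrink with that total: without the block the lower members numbered 4 of 30 Mediator, 1 of 29 elongation, 4 of 36 splicing, 8 of 36 mitosis, 8 of 39 ribosome biogenesis, 1 of 23 NRF2 and 0 of 31 interferon genes. For 4493 genes (28.8%) the 95% interval of the change lay within 1 log2 unit either side of 0, which corresponds to 2-fold.

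**Figure D1:**
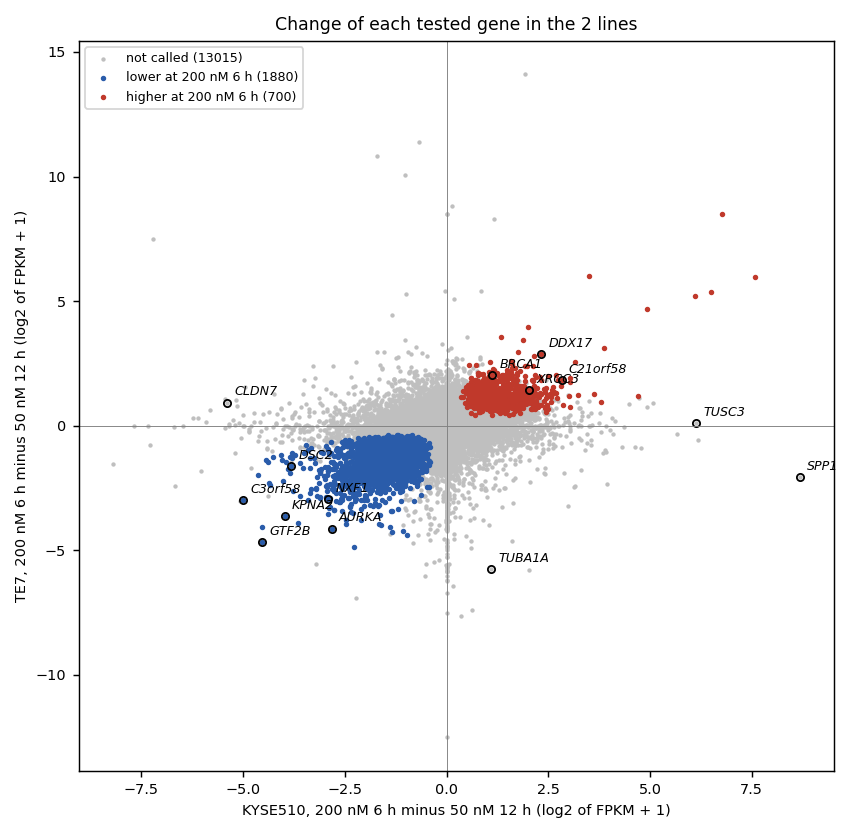
Change between 200 nM 6 h and 50 nM 12 h (log2 of FPKM + 1) in KYSE510, horizontal, and TE7, vertical, with 1 point per tested gene; blue and red points passed the test. GTF2B, KPNA2 and AURKA lie low in both lines and DDX17 high in both, while SPP1, TUSC3, CLDN7 and TUBA1A moved far in 1 line and little or the other way in the other.

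The difference can be followed through the 50 nM 6 h library of each line, which shares its time with one condition and its dose with the other. No test was made on these steps or against DMSO, and both steps share that library. Each dose step also takes in a 200 nM library, and those stood apart as described above. Protein-coding genes at 8 FPKM or more on 1 side and below 0.3 FPKM on the other numbered 27 and 76 for the dose step in KYSE510. They numbered 4 and 21 in TE7, against 0 and 0 for the time step in each line. Dose and differences between libraries cannot be told apart in the dose step. Over all 15595 genes the median change from 50 nM 6 h was -0.453 in KYSE510 and -0.395 in TE7 on raising the dose, and -0.206 and -0.268 on extending the time, with the dose step the larger in 71.9% and 63.7% of genes. The called genes were chosen on the difference of these steps, so their values are a description. For the 1880 lower genes the median change was -1.52 in KYSE510 and -1.40 in TE7 on raising the dose, and -0.04 and -0.08 on extending the time. For the 700 higher genes it was 0.80 and 0.67 with the dose and -0.44 and -0.54 with the time. Set against DMSO, the lower genes had a median of -1.34 and -1.35 at 200 nM 6 h and of 0.16 and -0.03 at 50 nM 12 h. The higher genes had 0.35 and 0.08 at 200 nM 6 h and -0.97 and -1.16 at 50 nM 12 h.

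**Figure D2:**
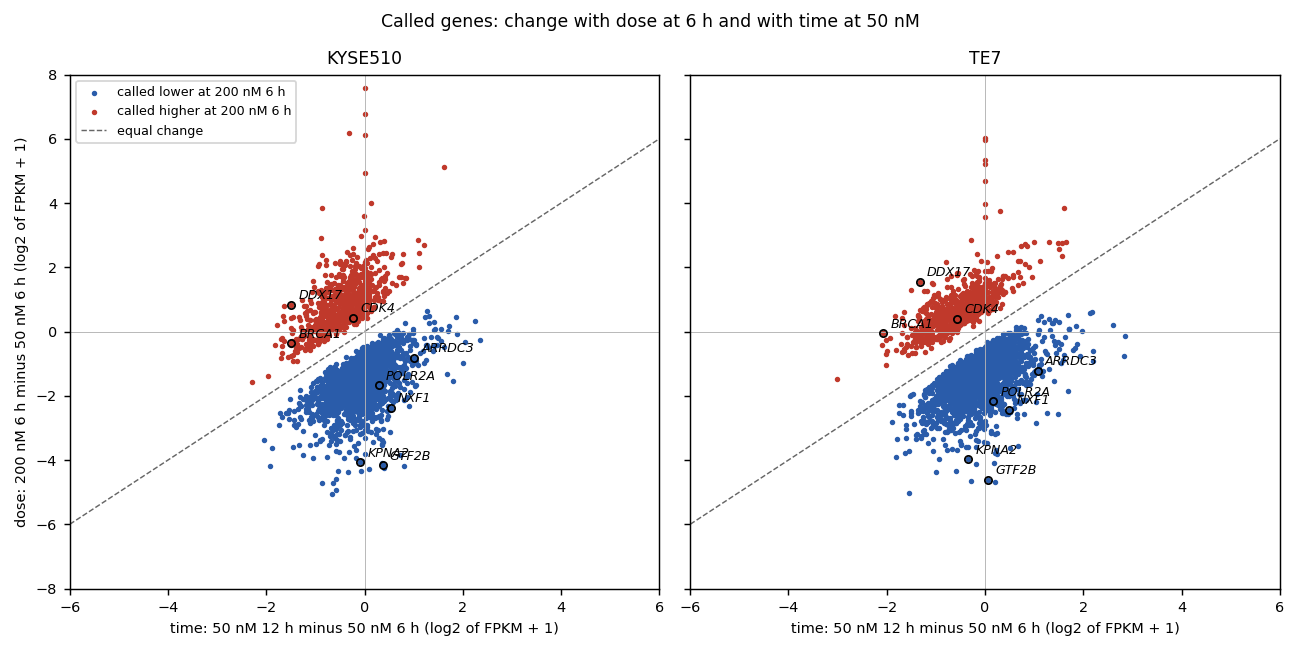
Called genes in each line: the change from 50 nM 6 h to 50 nM 12 h (horizontal) against the change from 50 nM 6 h to 200 nM 6 h (vertical), both as log2 of FPKM + 1. Lower genes (blue) spread around 0 on the time axis with a median dose change of -1.52 in KYSE510 and -1.40 in TE7, and higher genes (red) have 0.80 and 0.67. The vertical minus the horizontal value is the change on which genes were called, so the side of the dashed line of equal change on which each colour lies was set by that choice.

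The largest fall among the called genes was that of a general transcription factor. GTF2B encodes TFIIB, which joins RNA polymerase II to the promoter (hg19 chromosome 1, 89318615 to 89357627). It was at 46.3 FPKM in KYSE510 and 36.2 FPKM in TE7 after 50 nM for 12 h, and at 1.05 and 0.462 FPKM after 200 nM for 6 h. The DMSO levels were 17.4 and 19.9 FPKM, so the long low dose lay above DMSO and the short high dose far below it, with no overlap. The change was -4.60 ± 0.21 (SE, 2 lines; adjusted p = 0.000172), 24.2-fold. POLR2A, the largest subunit of RNA polymerase II, went from 47.2 and 39.9 FPKM in DMSO to 134.2 and 138.7 FPKM at 50 nM 12 h, with the 2, 4 and 6 h libraries in order between them. At 200 nM 6 h it was at 33.6 and 26.7 FPKM, a change of -2.15 ± 0.20 (adjusted p = 0.00123). POLR2B, another core subunit, was the other of 12 polymerase II subunits called, at -1.08 ± 0.25 (adjusted p = 0.0236). That is 2 of 12 against 16.5% of all genes, with 1 lower under equal sums of nuclear FPKM and 4 without the KYSE510 200 nM library.

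The promoters of 4 genes are printed because these genes head the differences described here. GTF2B and NXF1 had transcripts above DMSO after the long low dose and low after the short high dose, KPNA2 was low in the 200 nM libraries alone, and DDX17 was low at 50 nM 12 h. The sequences are the 250 bases before the RefSeq transcript start (GRCh38.p14), 5′ to 3′ on the gene's strand. Capitals mark 4 motifs searched on both strands: TATAAA (the TATA box), the CCAAT box, the GC box GGGCGG (bound by Sp1) and the AP-1 site TGACTCA.
GTF2B, chr1:88891568-88891817, minus strand: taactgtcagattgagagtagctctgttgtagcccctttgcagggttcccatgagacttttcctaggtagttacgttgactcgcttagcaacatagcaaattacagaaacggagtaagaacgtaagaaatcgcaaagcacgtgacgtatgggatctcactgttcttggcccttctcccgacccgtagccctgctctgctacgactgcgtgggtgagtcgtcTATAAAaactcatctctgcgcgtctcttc
NXF1, chr11:62805441-62805690, minus strand: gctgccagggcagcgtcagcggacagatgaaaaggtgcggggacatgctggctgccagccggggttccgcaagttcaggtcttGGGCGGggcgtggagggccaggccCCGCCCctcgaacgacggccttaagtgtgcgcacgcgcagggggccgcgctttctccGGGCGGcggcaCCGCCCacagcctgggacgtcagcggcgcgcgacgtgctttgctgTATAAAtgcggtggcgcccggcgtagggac
KPNA2, chr17:68035485-68035734, plus strand: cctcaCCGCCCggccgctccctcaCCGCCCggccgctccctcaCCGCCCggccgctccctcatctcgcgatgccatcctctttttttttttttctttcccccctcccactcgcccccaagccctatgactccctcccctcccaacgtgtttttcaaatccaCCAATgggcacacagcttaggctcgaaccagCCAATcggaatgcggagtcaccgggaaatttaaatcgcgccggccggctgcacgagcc
DDX17, chr22:38506312-38506561, minus strand: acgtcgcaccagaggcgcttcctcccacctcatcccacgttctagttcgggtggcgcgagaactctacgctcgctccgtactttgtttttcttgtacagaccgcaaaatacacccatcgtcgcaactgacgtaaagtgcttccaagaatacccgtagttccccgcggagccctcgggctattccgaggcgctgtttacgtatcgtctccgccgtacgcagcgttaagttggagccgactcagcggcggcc
GTF2B and NXF1 hold a TATAAA that begins 29 and 30 bases before the start. KPNA2 holds CCAAT and GGGCGG, and DDX17 holds none of the 4 in these 250 bases. Among 6592 promoters of tested protein-coding genes, TATAAA was in 4.9%, CCAAT in 36.3%, GGGCGG in 71.2% and TGACTCA in 2.6%. Only 52.9% of the 12470 genes looked up had a single promoter in the table, under the 80% needed, so motifs were not compared between called and other genes. A motif match is a description of these letters and not a bound site.

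Around the polymerase, 10 of 30 Mediator genes were lower and 1 higher, with a list median of -0.75 against -0.186 for all genes, of which 12.1% were lower. With equal sums of nuclear or protein-coding FPKM 5 were lower. Mediator bridges transcription factors and the polymerase. MED13, of its kinase module, was at 38.2 and 27.7 FPKM at 50 nM 12 h and at 5.66 and 5.58 FPKM at 200 nM 6 h (DMSO 8.79 and 8.81), a change of -2.34 ± 0.20 (adjusted p = 0.00119). MED6 and MED4 changed by -1.82 and -1.55. The exception was MED22, at 2.48 and 3.82 FPKM at 50 nM 12 h and 12.9 and 8.84 FPKM at 200 nM 6 h (1.52 ± 0.32, adjusted p = 0.0174). It was named after its values were seen. Of 30 general transcription factor and TAF genes 7 were lower and 1, TAF12, higher at 1.05 ± 0.23 (adjusted p = 0.0214). TAF13 and TAF9 were lower by 2.52-fold and 2.37-fold. With equal sums of protein-coding FPKM the split was 4 lower to 4 higher.

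Of 29 elongation factors 10 were lower (34.5%, against 12.1% of all genes), 0 were higher and the rest did not pass (median -0.781). LEO1, a subunit of the PAF1 complex that travels with the polymerase, changed by -2.24 ± 0.30 (adjusted p = 0.00366), from 11.1 and 12.4 FPKM at 50 nM 12 h to 2.19 and 1.26 FPKM. EAF1, an ELL-associated factor of the super elongation complex, changed by -1.84 ± 0.19. With equal sums of nuclear or protein-coding FPKM 4 of the 29 were called lower, and without the KYSE510 200 nM library 5.

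Among 16 transcriptional CDKs and cyclins 5 were lower (31.2%, against 12.1% of all genes) and 0 higher. CCNT1, the cyclin T1 partner of CDK9, was at 13.6 and 16.1 FPKM at 50 nM 12 h and at 3.76 and 2.30 FPKM at 200 nM 6 h (-1.99 ± 0.27, adjusted p = 0.00390). CCNK, the partner of CDK12 and CDK13, changed by -1.49 ± 0.24 and CCNL1, a splicing-linked cyclin, by -1.51 ± 0.43 (adjusted p = 0.0475). CDK7 itself was at 13.8 and 11.3 FPKM at 50 nM 12 h and at 7.98 and 2.49 FPKM at 200 nM 6 h. Its change of -1.27 ± 0.36 only just passed (adjusted p = 0.0498), with -0.72 in KYSE510 and -1.82 in TE7. CDK12 (0.47 ± 0.23, adjusted p = 0.191) and CDK13 (-0.51 ± 0.25, adjusted p = 0.197) did not pass. Under each of the 4 other scalings 2 of the 16 were lower, with 1 higher under equal sums of nuclear FPKM and 2 higher under equal sums of protein-coding FPKM.

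Of 16 mRNA export genes 4 were lower and 0 higher. NXF1, the main mRNA export receptor (hg19 chromosome 11, 62559595 to 62573774), went from 20.5 and 46.2 FPKM in DMSO to 151 and 173 FPKM at 50 nM 12 h. At 200 nM 6 h it was at 19.3 and 21.8 FPKM, a change of -2.92 ± 0.26 (adjusted p = 0.00123) that was nearly the same in KYSE510 (-2.91) and TE7 (-2.93). Its partner NXT1 and the THO subunit THOC1, which loads export factors on nascent RNA, changed by -1.82 ± 0.33 and -2.26 ± 0.40.

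Of 36 splicing factor and CLK kinase genes, 15 were lower (41.7%, against 12.1% of all genes) and 1 higher (median -0.72). With equal sums of nuclear or protein-coding FPKM 7 were lower. CLK1, which phosphorylates SR proteins, was at 27.9 and 57.5 FPKM at 50 nM 12 h and 5.49 and 15.04 FPKM at 200 nM 6 h. Its relative CLK2 was the 1 higher member, at 7.26 and 10.9 FPKM against 13.8 and 29.6 FPKM (1.10 ± 0.25, adjusted p = 0.0221). These kinases of the same family changed in opposite directions, CLK1 by -2.01 ± 0.29 (adjusted p = 0.00477). SF3B1, of the U2 snRNP, changed by -1.84 ± 0.21 and the splicing activator TRA2B by -1.80 ± 0.37. Cleavage and polyadenylation factors CLP1 (-2.42 ± 0.19, adjusted p = 0.00102), FIP1L1 (-2.14 ± 0.30) and CPSF6 (-1.49 ± 0.18) were lower. Of 31 genes of that list and the Integrator complex 8 were lower (25.8%, against 12.1% of all genes) and 1 higher. Their median was 0.077, and the split was 5 to 3 under equal sums of protein-coding FPKM. INTS3, of the Integrator complex, was the 1 higher, at 4.43 and 1.49 FPKM against 11.2 and 10.8 FPKM (1.71 ± 0.27, adjusted p = 0.00717). SNHG15, a short-lived host RNA of a small nucleolar RNA, changed by -2.07 ± 0.24.

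**Figure D3:**
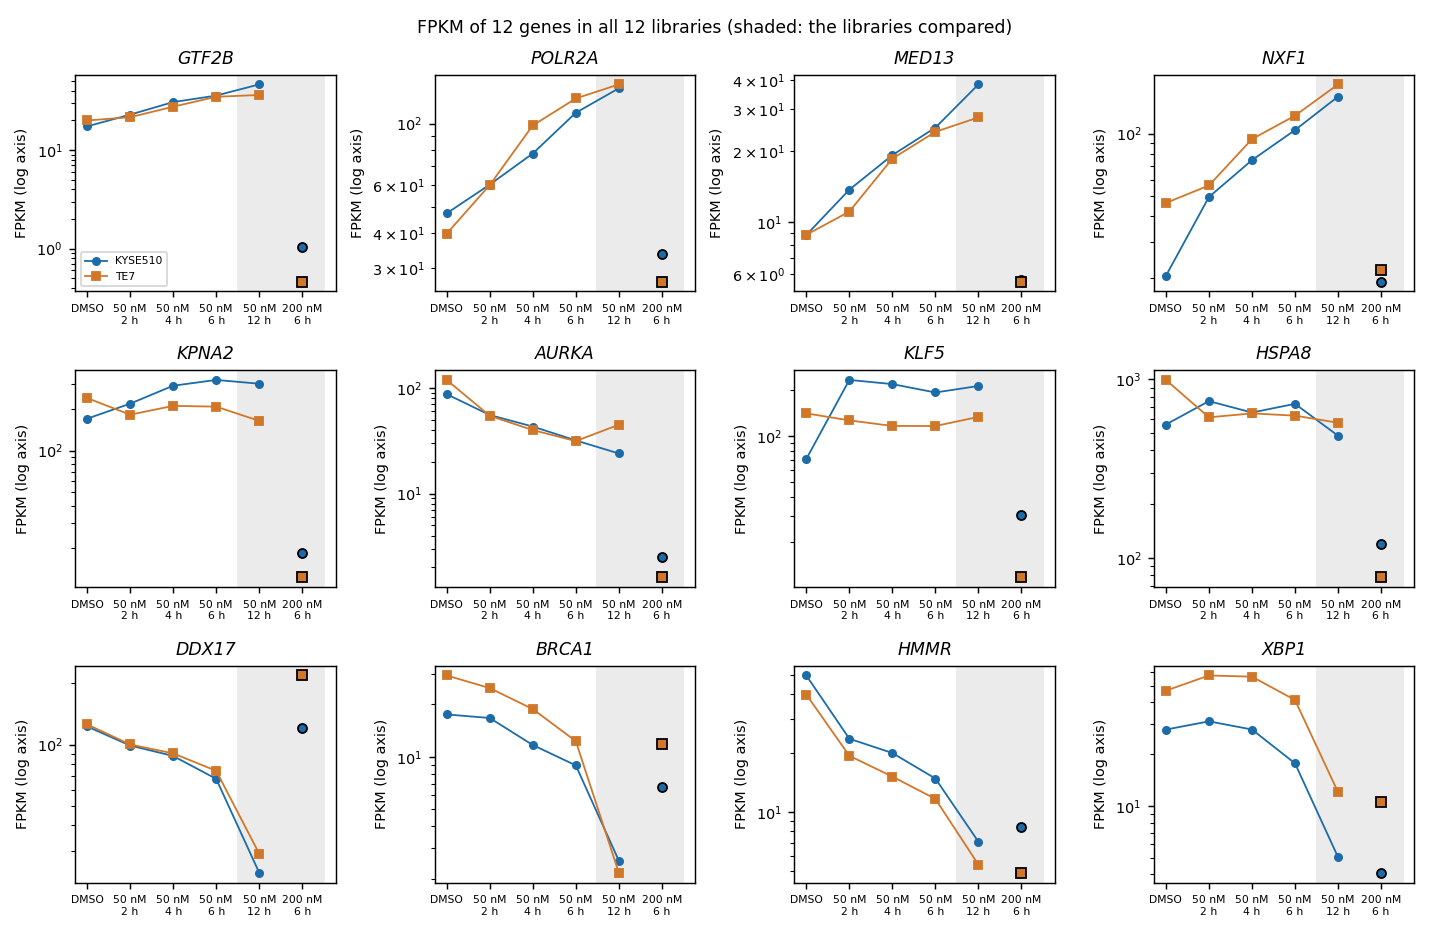
FPKM on a log axis of 12 genes in all 12 libraries, with KYSE510 as circles and TE7 as squares; lines join the DMSO and 50 nM libraries and the shaded libraries are the ones compared. GTF2B, POLR2A, MED13 and NXF1 are highest at 50 nM 12 h and low at 200 nM 6 h, DDX17 and BRCA1 are lowest at 50 nM 12 h and higher at 200 nM 6 h, and HMMR and XBP1 end at like levels.

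Mitosis genes had 17 of 36 lower (47.2%, against 12.1% of all genes) and 0 higher. Their median was -1.14 (-0.93 in KYSE510, -1.49 in TE7). AURKA, the Aurora A spindle kinase, was at 24.0 and 44.9 FPKM at 50 nM 12 h and 2.52 and 1.62 FPKM at 200 nM 6 h, a change of -3.48 ± 0.30 (adjusted p = 0.00123). FAM83D, a spindle protein gene that was among the largest falls, stood above its DMSO level at 50 nM 12 h (87.3 and 149.5 FPKM against 60.4 and 83.3) and at 6.05 and 9.18 FPKM at 200 nM 6 h (-3.77 ± 0.18, adjusted p = 0.000172). KPNA2, an importin alpha that carries proteins into the nucleus (hg19 chromosome 17, 66031635 to 66042958), went from 303.3 and 163.7 FPKM to 18.3 and 12.2 FPKM (-3.81 ± 0.30, adjusted p = 0.00103). The lowest of the 10 libraries of DMSO and 50 nM was this TE7 12 h one, and both 200 nM libraries lay far below it. PLK1 (-2.43 ± 0.46, adjusted p = 0.0129), CCNB1 (-2.10 ± 0.49, adjusted p = 0.0254) and KIF23 (-2.47 ± 0.37, adjusted p = 0.00576), a kinase, a cyclin and a kinesin of cell division, were lower too. Without either 200 nM library the count was 17 of 36 (TE7 left out, with 2 higher) and 24 of 36 (KYSE510 left out).

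DNA replication genes were mixed, with 30.2% lower and 6.98% higher, against 12.1% and 4.49% of all genes. Of 43 replication genes 13 were lower and 3 higher: FEN1, the flap endonuclease, changed by -2.45 ± 0.26, ORC1, the origin recognition subunit, by -2.35 ± 0.29 and GMNN, the licensing inhibitor geminin, by -2.31 ± 0.30, whereas POLA2 (1.13 ± 0.29), DNA2 (3.69 and 3.91 FPKM against 9.18 and 8.10 FPKM at 200 nM, adjusted p = 0.0330) and ORC2 (0.78 ± 0.22, adjusted p = 0.0476) were higher. ORC1 and ORC2, subunits of 1 complex, changed in opposite directions. The 3 higher members were named after their values were seen. With equal sums of protein-coding FPKM the split was 8 lower to 11 higher, and without the KYSE510 200 nM library 0 were higher.

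Of 34 homologous recombination and Fanconi genes 7 were higher and 0 lower, where 4.49% of all genes were higher, with a median of 0.31 against -0.186. BRCA1, which guides recombination repair, went from 17.5 and 29.3 FPKM in DMSO to 2.53 and 2.16 FPKM at 50 nM 12 h, and was at 6.70 and 11.8 FPKM at 200 nM 6 h (1.57 ± 0.26, adjusted p = 0.00758). Its levels at 50 nM 6 h, 8.93 and 12.3 FPKM, were close to those of 200 nM 6 h. XRCC3, a factor of homologous recombination, was at 4.27 and 20.4 FPKM at 50 nM 12 h and 20.5 and 56.7 FPKM at 200 nM 6 h (1.73 ± 0.22, adjusted p = 0.00301). ATM, the kinase that signals double-strand breaks, was at 2.64 and 3.95 FPKM against 7.01 and 12.4 FPKM (1.29 ± 0.24, adjusted p = 0.0122). RAD50 of the MRN complex changed by 1.18 ± 0.24 (adjusted p = 0.0159), and XRCC2 and RAD54B, named after their values were seen, by 1.86 and 0.93. For ATM, RAD50 and XRCC3 the 50 nM 12 h level was the lowest of the 6 libraries in each line. DMSO levels were 4.72 and 10.9 FPKM for ATM and 16.2 and 60.1 FPKM for XRCC3. The count was 7 without the TE7 200 nM library and 5 without that of KYSE510, each with 1 lower, and 0 without the cell line block.

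CDK4, the cyclin D kinase, was at 77.9 and 126.2 FPKM at 50 nM 12 h and 124.1 and 246.1 FPKM at 200 nM 6 h (0.81 ± 0.16, adjusted p = 0.0135). It was the 1 higher of 24 G1 and E2F genes, with 5 lower (20.8%, against 12.1% of all genes). With equal sums of nuclear or protein-coding FPKM 1 was lower. Among the 5 lower on FPKM as deposited was CDC25A, the phosphatase that releases G1 kinases, at -1.56 ± 0.34 (adjusted p = 0.0196).

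Of 16 squamous lineage factors 6 were lower (37.5%, against 12.1% of all genes) and 0 higher, with a median of -0.80, and the rest did not pass. KLF5, a Krüppel-like factor of squamous epithelium, was at 212.8 and 133.3 FPKM at 50 nM 12 h and 30.3 and 11.8 FPKM at 200 nM 6 h (-3.08 ± 0.47, adjusted p = 0.00590). The ETS factors EHF (-2.44 ± 0.21, adjusted p = 0.00121) and ELF3 (-1.54 ± 0.41) were lower in both lines. For EHF, ELF3 and KLF5 both 200 nM levels lay under all 10 others. SOX2, a factor of squamous lineages, was at 15.27 FPKM at 50 nM 12 h and 84.88 FPKM at 200 nM 6 h in KYSE510, but at 6.45 and 0.98 FPKM in TE7, and did not pass (adjusted p = 0.916). The 25 keratin and desmosome genes had a median of -1.78 in KYSE510 and -0.63 in TE7, with 6 lower (24.0%) and 0 higher. KRT5, the basal keratin, changed by -0.83 ± 0.19 (adjusted p = 0.0253) from 1879 and 1616 FPKM to 1011 and 946.5 FPKM. DSC2 and JUP, a desmosomal cadherin and plakoglobin, changed more in KYSE510 (-3.81 and -2.97) than in TE7 (-1.63 and -0.83). Without the TE7 200 nM library 16 of 25 were lower and 2 higher. Without the KYSE510 one 5 were lower, and with equal sums of nuclear and of protein-coding FPKM 2 and 1.

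The 5 genes the study is known for as super-enhancer targets in this cancer (PAK4, RUNX1, DNAJB1, SREBF2 and YAP1) gave no call. That is 0 of 5 past limma's test at an adjusted p under 0.05, where 16.5% of all genes passed. A list of 5 is too short to tell these shares apart. The study chose these 5 genes partly from these libraries, so they are no independent evidence. In TE7 all 5 changed by at most 0.14 log2 units in size. PAK4 was at 7.86 FPKM at 50 nM 12 h and 7.74 FPKM at 200 nM 6 h there, and RUNX1 at 17.4 and 17.2 FPKM. In KYSE510 the changes were -1.06 for PAK4, -1.18 for DNAJB1, -0.59 for YAP1, 1.36 for RUNX1 and 1.15 for SREBF2. A p that misses the threshold does not show that the conditions acted alike.

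In the heat shock list 7 of 26 genes were lower (26.9%, against 12.1% of all genes) and 1 higher. HSPA8, the constitutive HSP70, was at 483.6 and 571.6 FPKM at 50 nM 12 h and 119.5 and 78.1 FPKM at 200 nM 6 h (-2.43 ± 0.31, adjusted p = 0.00327). Its cochaperone BAG3 changed by -2.80 ± 0.31 (adjusted p = 0.00199) and the mitochondrial cochaperonin HSPE1 by 1.03 ± 0.26 (adjusted p = 0.0315). HSPA1A (-3.37 ± 0.92, adjusted p = 0.0434) has a near-identical copy, HSPA1B, so its value is uncertain. With equal sums of protein-coding FPKM the split was 4 lower and 6 higher.

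NRF2 and glutathione genes had 10 of 23 lower (43.5%, against 12.1% of all genes) and 0 higher (median -0.96). With equal sums of nuclear and of protein-coding FPKM 5 and 4 were lower. NFE2L2, the gene of NRF2, changed by -2.41 ± 0.44 (adjusted p = 0.0114), and GCLC, of glutathione synthesis, was 4.01-fold lower on the FPKM + 1 scale (adjusted p = 0.00717). GCLC stood at 193.4 and 22.6 FPKM at 50 nM 6 h, at 70.2 and 10.7 FPKM at 12 h and at 15.1 and 2.21 FPKM at 200 nM 6 h. TXNRD1, GCLM and NQO1 were lower by smaller amounts (-1.28, -1.19 and -0.86). Of 23 NF-kB genes 3 were lower and 0 higher (13.0% called, against 16.5% of all genes). NFKB1, the p50 precursor, was at 31.6 FPKM in both lines at 50 nM 12 h and at 4.52 and 8.02 FPKM at 200 nM 6 h (-2.21 ± 0.25, adjusted p = 0.00218). RELA changed by -0.90 ± 0.18. Of 16 clock genes 3 were lower and 0 higher (18.8% called), with a median of -0.009. They were the clock repressors CRY1 (-2.07 ± 0.22) and CRY2 (-1.69 ± 0.29) and NFIL3 (-2.50 ± 0.31). The arrestin-domain gene ARRDC3 was at 12.2 and 8.35 FPKM at 50 nM 12 h, close to DMSO, and at 2.74 and 0.898 FPKM at 200 nM 6 h. Of the death promoters of the BCL2 family, 3 of 12 were lower, among them BCL2L11 (BIM, -1.64 ± 0.36) and PMAIP1 (NOXA, -1.33 ± 0.22). Of 35 immediate-early genes 1, SRF, was called (-1.01 ± 0.21, adjusted p = 0.0177), where 16.5% of all genes were. Without the TE7 200 nM library 5 were lower and 3 higher, and without the KYSE510 one 5 lower. For interferon genes 7 of 31 were lower (22.6%, against 12.1% of all genes), IFIT1 by -3.14 ± 0.49. With equal sums of nuclear or protein-coding FPKM 2 were lower.

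Among genes of growth, ribosome biogenesis genes had 18 of 39 lower (46.2%, against 12.1% of all genes) and 0 higher (median -0.86). With equal sums of protein-coding FPKM 11 were lower and 1 higher. NOP16 was at 44.0 and 23.8 FPKM at 50 nM 12 h and 6.28 and 3.80 FPKM at 200 nM 6 h (-2.50 ± 0.19, adjusted p = 0.00101), and BRIX1 changed by -2.84 ± 0.34. Both are assembly factors of the large subunit. POLR1C and POLR1D, which polymerases I and III share, were lower (-1.84 and -1.83), as was the glycyl-tRNA synthetase GARS (-2.18 ± 0.38), while the leucyl-tRNA synthetase LARS was higher (0.68 ± 0.18, adjusted p = 0.0376). The genes of the mitochondrial ribosome had 23 of 77 lower, MRPL44 by -2.98 ± 0.24 (adjusted p = 0.00106), and 1 higher, with 15 lower under equal sums of protein-coding FPKM. The cytosolic ribosomal protein genes, whose mRNAs are long-lived, had a median of -0.355, below the -0.186 of all genes. Yet 4 of 83 were called lower (4.82%, against 12.1% of all genes). This low count rests on single libraries: it was 21 of 83 without either 200 nM library, where 2847 (TE7 left out) and 2398 (KYSE510 left out) of the 15595 genes were lower, and 10 without the KYSE510 DMSO library. Tubulin genes had 6 of 13 lower (46.2%, against 12.1% of all genes). Among them was TUBB4B, at 1127 and 588.3 FPKM against 165.9 and 100.5 FPKM.

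**Figure D4:**
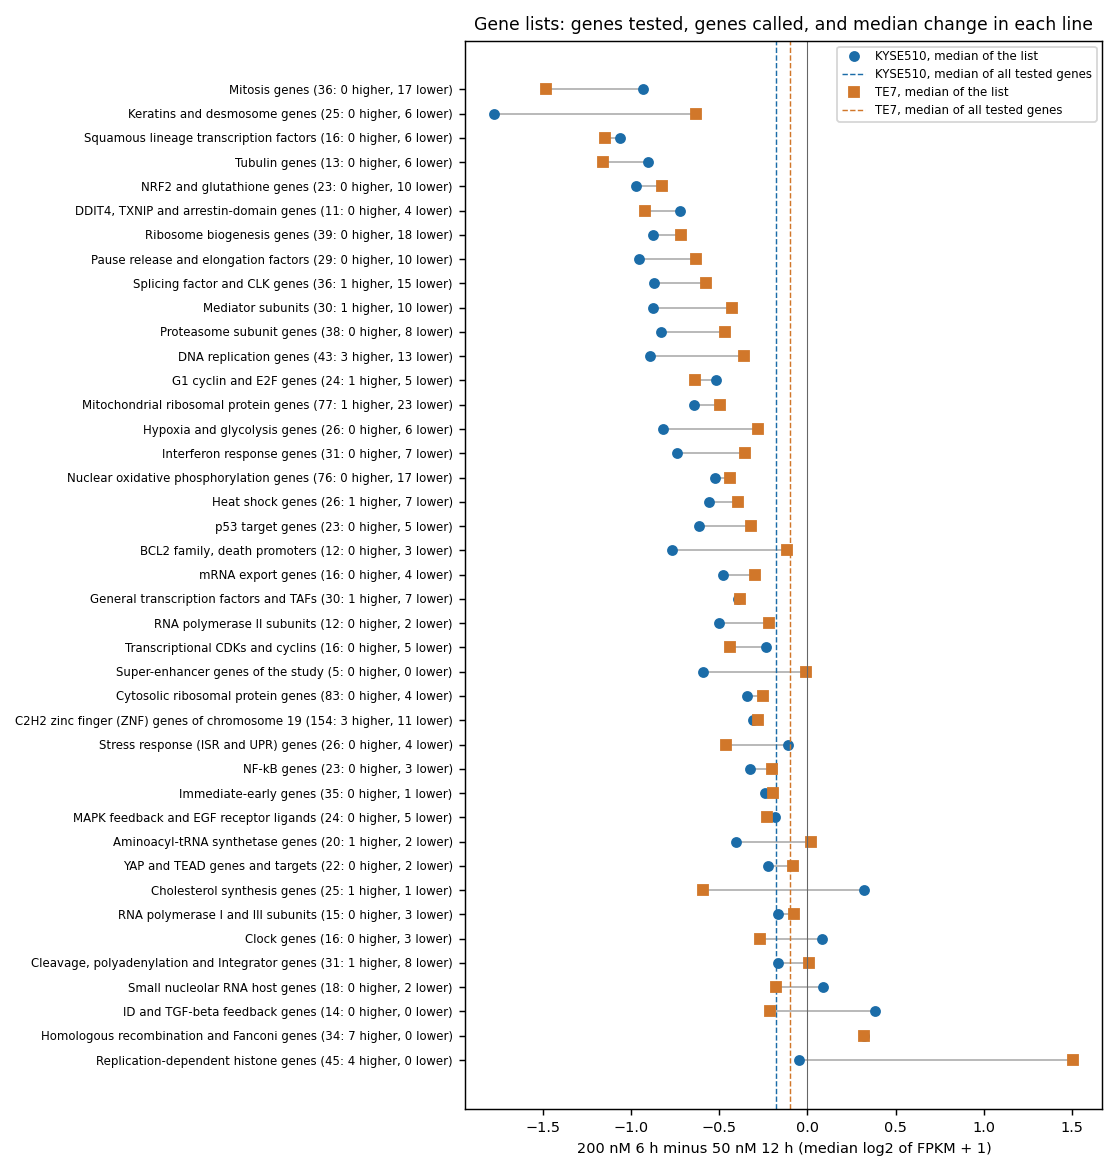
Median change between 200 nM 6 h and 50 nM 12 h (log2 of FPKM + 1) of each gene list with 5 or more tested members, in KYSE510 (circles) and TE7 (squares), with the number tested and called beside each name; dashed lines mark the medians of all tested genes. Mitosis genes sit at -0.93 and -1.49, recombination genes at 0.32 in both lines, and histone genes differ between the lines (-0.05 and 1.51).

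The largest rise among protein-coding genes was that of DDX17, a DEAD-box helicase of RNA processing (hg19 chromosome 22, 38879445 to 38903665). It went from 122.8 and 125.8 FPKM in DMSO to 23.4 and 29.01 FPKM at 50 nM 12 h, and was at 121.3 and 219.1 FPKM at 200 nM 6 h. The change was 2.60 ± 0.23 (6.07-fold, adjusted p = 0.00123). CPT1B, a carnitine palmitoyltransferase of fatty acid oxidation, was at 4.07 and 2.37 FPKM against 20.9 and 16.7 FPKM (2.25 ± 0.24, adjusted p = 0.00183). POLG2, the accessory subunit of the mitochondrial DNA polymerase, changed by 1.96 ± 0.23 (adjusted p = 0.00252) and PAN2, a poly(A) nuclease, by 2.08 ± 0.32 (adjusted p = 0.00610). For DDX17, CPT1B, POLG2, PAN2, DCAKD, SGK494, TMEM194A and C21orf58 the 12 h level was below DMSO in each line, and the changes ran from 1.96 to 2.60. CYP51A1, of sterol synthesis, was lower (-1.40 ± 0.27).

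Short non-coding RNAs and pseudogenes made up the top of the list of rises. RNU6-25P, a U6 snRNA copy, was listed at 0 in all 10 other libraries and at 108.6 and 360.2 FPKM in KYSE510 and TE7 200 nM. RNA5S9 was at 67.8 and 36.0 FPKM and SPTLC1P2 at 29.5 and 24.6 FPKM in these 2 libraries and likewise listed at 0 elsewhere. They were the 3 genes at 10 FPKM or more in both libraries of a condition and at 0 in the other 10, and no other condition had any. Reads of such short or copied RNAs cannot be assigned with certainty. Because both 200 nM libraries share this, how the libraries were made and the dose cannot be told apart for these 3 genes. Replication-dependent histone genes, whose mRNAs lack a polyA tail and have near-identical copies, were split by line. Of 45 genes 4 were higher (8.89%, against 4.49% of all genes) and 0 lower. Their median change was -0.05 in KYSE510 and 1.51 in TE7. The summed level of all 73 such histone genes, tested or not, was 130.6 FPKM in KYSE510 and 616.4 FPKM in TE7 at 200 nM 6 h. At 50 nM 12 h it was 347.2 and 270.7 FPKM.

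Some transcripts were at like levels in both conditions. They were picked for this, and the share to be expected without any link between the conditions was not estimated. Of 7513 genes at a mean of 5 FPKM or more over the 4 libraries, 358 (4.8%) differed by less than 0.25 log2 units in each line. Among those farthest below DMSO were HMMR, a spindle and hyaluronan-binding protein gene, XBP1, of the unfolded protein response, and MRPL17, RHNO1 and C17orf62. HMMR was at 7.09 and 5.41 FPKM at 50 nM 12 h and 8.43 and 4.93 FPKM at 200 nM 6 h, against 49.9 and 39.9 FPKM in DMSO. XBP1 was at 5.04 and 12.0 FPKM against 4.09 and 10.5 FPKM, with DMSO at 27.8 and 46.8 FPKM. Among those farthest above DMSO were PTDSS1, TMED3, ATP6AP2, C12orf75 and UBXN11. TMED3, of vesicle traffic, was at 73.9 and 154.4 FPKM against 76.8 and 143.8 FPKM, with DMSO at 44.9 and 83.9 FPKM. HMMR changed by 0.05 ± 0.19 (adjusted p = 0.871) between the conditions, where the spindle genes AURKA and TPX2 changed by -3.48 ± 0.30 and -1.80 ± 0.22.

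The called genes differed from the rest in base composition. GC content of the mature transcript had a median of 44.5% among lower protein-coding genes, 56.1% among higher ones and 49.0% among all 12183 with a value. The share called lower declined from 21.1% of genes up to 40% GC to 5.31% of those over 60%, and the share called higher went from 1.78% to 7.87%. Spearman's rho between GC and the change, across genes and with no test, was 0.29 in TE7 and 0.09 in KYSE510, so the pair that crosses the library divide showed it more. Whether library making accounts for any of it was not tested. By gene span the share called lower was 8.81% up to 5 kb, 17.1% from 20 to 50 kb and 5.40% over 200 kb, so it was highest at middle lengths. Median spans were 33.1 kb (lower), 24.3 kb (higher) and 31.2 kb (all). By calls, 61 antisense genes were higher and 35 lower of 1142 and 42 lincRNAs higher and 20 lower of 676, against 520 higher and 1756 lower of 12524 protein-coding genes. By median change antisense genes stood at -0.145, lincRNAs at 0.063 and protein-coding genes at -0.222, and in TE7 antisense genes were the lower (-0.22 against -0.12). The counting of reads from overlapping antisense genes is not stated to use strand.

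**Figure D5:**
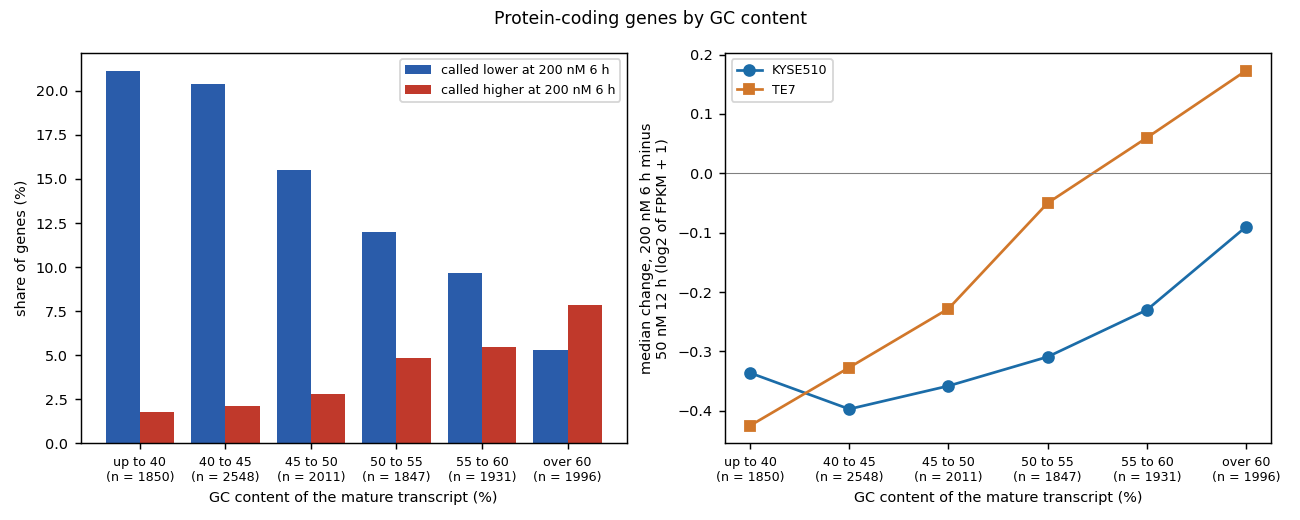
Protein-coding genes grouped by GC content of the mature transcript: share called lower (blue bars) and higher (red bars) at 200 nM 6 h, left, and median change in each line (log2 of FPKM + 1), right. The share called lower goes from 21.1% to 5.31% with rising GC, and the medians rise from -0.43 to 0.17 in TE7 and from -0.34 to -0.09 in KYSE510.

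A further test asked which changes differed between the lines, using 2 more terms in the same model. It called 593 of 15595 genes (3.8%), 297 with the more positive change in KYSE510 and 296 in TE7. This count rests on 3 residual degrees of freedom: it was 0 whenever a 50 nM library of 2, 4 or 6 h was left out, 7607 with the 10 THZ1 libraries alone, and of 100 simulated line differences of 2 log2 units 0 were recovered. Genes that passed it are given with the results for a closer look.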

How the data were processed

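The deposited tables give FPKM per gene for each of the 12 libraries. Per the submitters' processing notes the authors used STAR, Cufflinks and hg19, with no roles or versions stated. Read counts are not in these tables, so depth is not known here. The authors' upper confidence bound lay a median of 8.75% to 10.58% above the value (genes at 1 FPKM or more) in the 4 libraries compared. Each table has 57869 lines for 57755 gene identifiers, and FPKM of 108 identifiers at several loci were summed. The 37 MT- genes were left out. Genes at 1 FPKM or more in at least 2 libraries were tested on log2(FPKM + 1), computed here from the deposited FPKM, with limma 3.58.1 (R 4.3.3, mean trend, cell line as block, all 12 libraries, two-sided, Benjamini-Hochberg over all genes). This left 5 residual degrees of freedom with a prior of 2.91. The pairing comes from the labels: libraries of 1 line share their cells. Nothing says that the libraries came from separate cultures, so p-values measure the spread between these libraries.

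On simulated data for this contrast, run on 15595 genes, 81% of 100 genes changed by 2 log2 units were recovered and 4% of 100 changed by 1, with 3 unchanged genes called. The simulated noise was independent, with the same spread of a gene in all 12 libraries, and no other genes were changed. The real libraries differed in the ways described above, so these rates, and that for line differences, may not carry over to them.

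Named genes were the 15 largest rises and falls past the threshold at a mean of 5 FPKM or more, ranked by the smaller of the changes of the lines; 6 per direction alike in both conditions; 8 genes of interest; up to 4 per list; and up to 6 per direction for the line difference. Other genes given with values (CDK1, CCNB1, PLK1, PCNA, CLK2, INTS3, TAF12, MED22, POLA2, DNA2, ORC2, XRCC2, RAD54B, HSPE1, GCLM, NQO1, SOX2, CTAG2 and COL3A1) were chosen after their values were seen. A few genes that the rule names are not reported here. The comparison, the 46 gene lists and their tests were chosen with earlier results of these data known. GC content and exons came from GENCODE 29 by gene identifier, with exons for 90.6%. Promoters came from RefSeq (GRCh38.p14). Alternatives were other pseudocounts, filters, scalings, trends and blocks, and leaving out each library.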

Additional observations from a re-analysis of the deposited data

Results flagged for a closer look

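The test of a difference between the lines picked out genes described above. POLR1C changed by -2.62 in KYSE510 and -1.06 in TE7 (difference -1.56 ± 0.25, SE, adjusted p = 0.0459), JUP by -2.97 and -0.83 (difference -2.14 ± 0.19, adjusted p = 0.0204), DSC2 by -3.81 and -1.63 (difference -2.18 ± 0.26, adjusted p = 0.0291) and IFITM2, an interferon-induced membrane protein gene, by -3.40 and -0.98 (difference -2.43 ± 0.24, adjusted p = 0.0243). CDK1, the mitotic kinase, changed more in TE7, by -2.21 against -0.70 in KYSE510 (difference 1.51 ± 0.22, adjusted p = 0.0413). So did PCNA, the replication clamp, by -2.11 against -0.98 (difference 1.14 ± 0.19, adjusted p = 0.0480).

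The size of some differences came from a gene present in 1 library and nearly absent from its pair. TUSC3 was at 0.175 FPKM in KYSE510 at 50 nM 12 h and at 81.8 FPKM in the library labelled KYSE510 200 nM, and at 190.6 and 205.1 FPKM in TE7 (difference 6.03 ± 0.55, adjusted p = 0.0214). SPP1 differed by 10.73 ± 0.94 (adjusted p = 0.0204), with changes of 8.68 in KYSE510 and -2.05 in TE7. TUBA1A, an alpha-tubulin gene, went from 285.5 to 4.25 FPKM in TE7 and from 15.1 to 33.5 FPKM in KYSE510 (difference 6.87 ± 1.06, adjusted p = 0.0440). CLDN7, a claudin gene of epithelia, was at 110.6 FPKM in KYSE510 50 nM 12 h and 1.66 FPKM at 200 nM 6 h, with 76.6 and 146.3 FPKM in the TE7 pair (difference -6.31 ± 1.05, adjusted p = 0.0493).

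The mitochondrially encoded genes, outside the comparison, summed to 199073.1 FPKM in TE7 at 50 nM 12 h against 53738.5 FPKM in TE7 DMSO, and to 548.2 FPKM in the library labelled KYSE510 200 nM against 41.9 FPKM in KYSE510 DMSO.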

How the results depend on the processing

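The 2580 genes called between the conditions stayed within 1.5 times that count under the other pseudocounts, filters, trends, locus choices and scalings, with the 10 THZ1 libraries (3661) and without either DMSO library or the KYSE510 200 nM library. The size of the count held better than its members. Of the 2580 genes, 2293 were still called by median-of-ratios and 2233 by upper quartile. With equal sums of nuclear FPKM 1852 were, with equal sums of protein-coding FPKM 1711 and with no filter 1743. With no replicate block for the cell line 569 were called, and with the 4 libraries alone, which leave 1 residual degree of freedom, limma called 0 (2145 at an unadjusted p under 0.05). Leaving out 1 library at a time gave 790 to 4313. With equal sums of nuclear and of protein-coding FPKM 111 and 106 of the 129 genes named as called were still called, and with no filter 103. All called genes had the same sign in both lines, so a turn was unlikely from the start. Of these 129 named genes, 0 turned under the 27 alternatives, though 4 of them were not tested with a mean of at least 5 FPKM. The fit with no replicate block called 63 of them and that without the 50 nM 12 h library of KYSE510 or TE7 77 and 75. Of the 8 named without a call, SOX2 turned with a pseudocount of 0.1 (-0.0704), and YAP1 with equal sums of nuclear FPKM (0.076) and of protein-coding FPKM (0.17). Leaving out 1 library at a time, YAP1 ran from -0.60 to 0.14 and DNAJB1 from -1.29 to 0.18, both positive without the KYSE510 200 nM library, and SOX2 from -1.5809 without that library to 2.065 without that of TE7. The line difference, 593 genes, moved to 958 and 369 with pseudocounts of 0.1 and 5, 3256 with no filter, 1177 by median-of-ratios, 1625 by upper quartile and 7607 with the 10 THZ1 libraries. Leaving out 1 library gave 0 to 7607, with limma calling 0 without any of the 2, 4 or 6 h libraries (2542 to 2941 at an unadjusted p under 0.05) and 7603 or 7607 without a DMSO library. It could not be fitted without a library of the contrast, without the block or with 4 libraries. The cause of these shifts was not tested. The scaling by protein-coding sums and the list counts without single libraries were added after the data were seen. With 2 libraries per condition and 5 residual degrees of freedom, changes of 2-fold were mostly below detection in the simulation. In the data some smaller changes passed, such as those of LARS (0.68) and KRT5 (-0.83).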
